A study of Mus musculus with 2 samples.

Results

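The genes described here are 8 transcription factor genes that set myeloid fate in mouse blood formation: Cebpa, Cebpb, Cebpd, Cebpe, Spi1, Irf8, Gfi1 and Klf4. They were examined for binding sites of HLF (hepatic leukemia factor), one of the PAR bZIP transcription factors. A peak was counted for a gene when its centre lay inside the gene or within 100 kb of either gene end. By this rule 7 of the 3153 peaks in the list belonged to 4 of the 8 genes, and the other 4 genes had none. Of all coding genes 36.7% had a peak by the same rule, a share at which 2.94 of 8 genes would have one. The limit decided which genes held a peak, so the counts at 100 kb are a description.

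The peaks came from anti-FLAG chromatin immunoprecipitation with sequencing in wild-type mouse LSK cells, the hematopoietic stem and progenitor cells without lineage markers that carry Sca-1 and c-Kit. The FLAG-HLF arm received a pMX retrovirus with 3xFLAG-tagged Hlf and GFP, and the GFP-ctrl arm a pMX-GFP virus. Both were infected as 80000 cells and kept for 5 days with SCF at 50 ng/ml, IL-7 and Flt3L at 10 ng/ml each and IL-3 at 5 ng/ml. HLF was therefore supplied by a virus and not from its own gene, and the peaks describe cells after culture. There was 1 library per arm, and a peak list of the control arm was not analysed here, so the values are without replicates and the arms were not compared. The list gives positions of peaks that are all 400 bases wide, with no read count, height or significance. Depth is therefore unknown, and a gene without a peak is a gene without an entry in this list. No expression values were at hand to check the LSK label against its markers.

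Myeloid fate is set by a small circuit of DNA-binding proteins. PU.1, the ETS factor encoded by Spi1, acts in all myeloid lineages and in B cells, and C/EBP alpha takes progenitors to the granulocyte-monocyte stage. IRF8 and KLF4 favour monocytes, while GFI1, a zinc finger repressor, and C/EBP epsilon act in granulocyte formation. The C/EBP proteins are bZIP factors like HLF, and the DNA sites of both families share the outer letters TT and AA.

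Promoter sequence was looked at first, as a description of the bases where transcription of these genes starts. RefSeq promoters of GRCm38.p6, which run from 250 bases before to 50 after a start, were on hand for 5 of the 8 genes, with 7 entries. They belonged to Cebpa, Cebpb and Klf4 with 1 each, and to Irf8 and Gfi1 with 2 each. None of the 7 overlapped a peak. The distances already fixed this: the closest peak of Cebpb was 39.5 kb away, and Cebpa, Klf4, Gfi1 and Irf8 had none within 100 kb. Cebpd, Cebpe and Spi1, which had peaks in their windows, were without an entry. The 7 entries therefore do not show whether the peaks lay at gene starts. Over all entries on the chromosomes with peaks, 227 of 32619 promoters, or 0.696%, overlapped a peak. Among 107 genes of related lists with a promoter entry, the promoters of Irf2, Atf3 and Meis1 overlapped a peak. The 250 bases before the start are shown for Irf2 and Atf3, which lay in a peak, and for Gfi1, Klf4 and Cebpb, which did not. Capitals mark matches to any of 8 motifs searched on both strands. These were TTACGTAA, the palindromic PAR bZIP site; TTACNTAA, which includes it; TTATGTAA, whose reverse complement also matches TTACNTAA; TTGCGCAA, the palindromic C/EBP site; TTGCNNAA, which includes it; TGACGTCA, the CRE; GAGGAAGT, a PU.1 core; and CACGTG, an E-box.
Irf2 promoter, chr8:46739495-46739744, plus strand: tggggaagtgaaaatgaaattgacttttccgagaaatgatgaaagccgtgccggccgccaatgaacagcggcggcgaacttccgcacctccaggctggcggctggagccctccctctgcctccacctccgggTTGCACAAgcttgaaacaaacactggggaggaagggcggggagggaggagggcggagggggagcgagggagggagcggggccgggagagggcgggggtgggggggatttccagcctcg
Atf3 promoter, chr1:191183334-191183583, minus strand: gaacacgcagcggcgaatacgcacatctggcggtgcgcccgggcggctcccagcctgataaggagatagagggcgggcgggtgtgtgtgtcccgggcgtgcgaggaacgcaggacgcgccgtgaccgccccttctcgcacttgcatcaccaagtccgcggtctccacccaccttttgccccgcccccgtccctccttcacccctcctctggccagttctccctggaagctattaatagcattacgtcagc
Gfi1 promoter, chr5:107725806-107726055, minus strand: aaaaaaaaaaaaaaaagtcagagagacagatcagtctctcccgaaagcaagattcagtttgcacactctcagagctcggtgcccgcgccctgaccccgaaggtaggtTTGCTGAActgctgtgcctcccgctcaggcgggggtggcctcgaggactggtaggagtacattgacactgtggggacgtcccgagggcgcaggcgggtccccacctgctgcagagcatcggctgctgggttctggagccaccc
Klf4 promoter, chr4:55532476-55532725, minus strand: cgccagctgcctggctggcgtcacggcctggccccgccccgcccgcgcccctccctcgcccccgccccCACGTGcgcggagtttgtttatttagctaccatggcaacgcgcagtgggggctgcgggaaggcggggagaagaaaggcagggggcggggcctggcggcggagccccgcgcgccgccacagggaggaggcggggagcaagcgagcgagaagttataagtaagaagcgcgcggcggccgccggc
Cebpb promoter, chr2:167688665-167688914, plus strand: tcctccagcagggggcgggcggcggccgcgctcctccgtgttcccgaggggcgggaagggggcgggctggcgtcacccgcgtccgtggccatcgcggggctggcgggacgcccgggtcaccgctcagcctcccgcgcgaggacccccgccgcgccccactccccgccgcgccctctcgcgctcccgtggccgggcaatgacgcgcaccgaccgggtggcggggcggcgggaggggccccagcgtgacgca

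The peak at Irf2, an interferon regulatory factor related to IRF8, covered all 250 of these bases. That stretch holds a match to TTGCNNAA, written TTGCACAA, which begins 118 bases before the start. The peak at Atf3, a stress-induced bZIP factor, covered 197 of the 250 bases, with no match to the 8 motifs. The 7 promoters of the myeloid factor genes held 2 matches in all. In Gfi1, TTGCTGAA matches TTGCNNAA and begins 143 bases before the start. In Klf4, CACGTG begins 182 bases before the start. TTGCNNAA occurs in 10.9% of all promoters and CACGTG in 7.20%, so such matches are common. The palindromic PAR bZIP site TTACGTAA, present in 0.120% of all promoters, was in none of the 7. No match in these windows says only that the letters are not there.

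The promoters of Cebpd, Cebpe and Spi1 were not analysed here, and the positions of all peaks near the 8 genes were compared gene by gene. Of the 8 genes, 4 (50%) had a peak within 100 kb, against 7947 of 21631 coding genes, or 36.7%. At that share 2.94 of 8 genes would have a peak, so the count was about 1 gene above the background. The share was 34.9% for coding genes no longer than the longest of the 8, and 39.1% when olfactory and vomeronasal receptor genes were left out. Within 50 kb the count was 3 of 8, against 24.5% of coding genes. Within 20 kb it was 1 of 8 (12.5%), against 15.2%. These shares lie near the background, above it at the wider limits and below it at 20 kb. By protein family, 3 of the 4 C/EBP genes and 1 of the 4 other genes had a peak within 100 kb. This split depended on the limit: Cebpd counted only at 97.1 kb, and within 20 kb the only gene with a peak was Spi1. With 4 genes on each side, nothing is read from it.

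**Figure D1:**
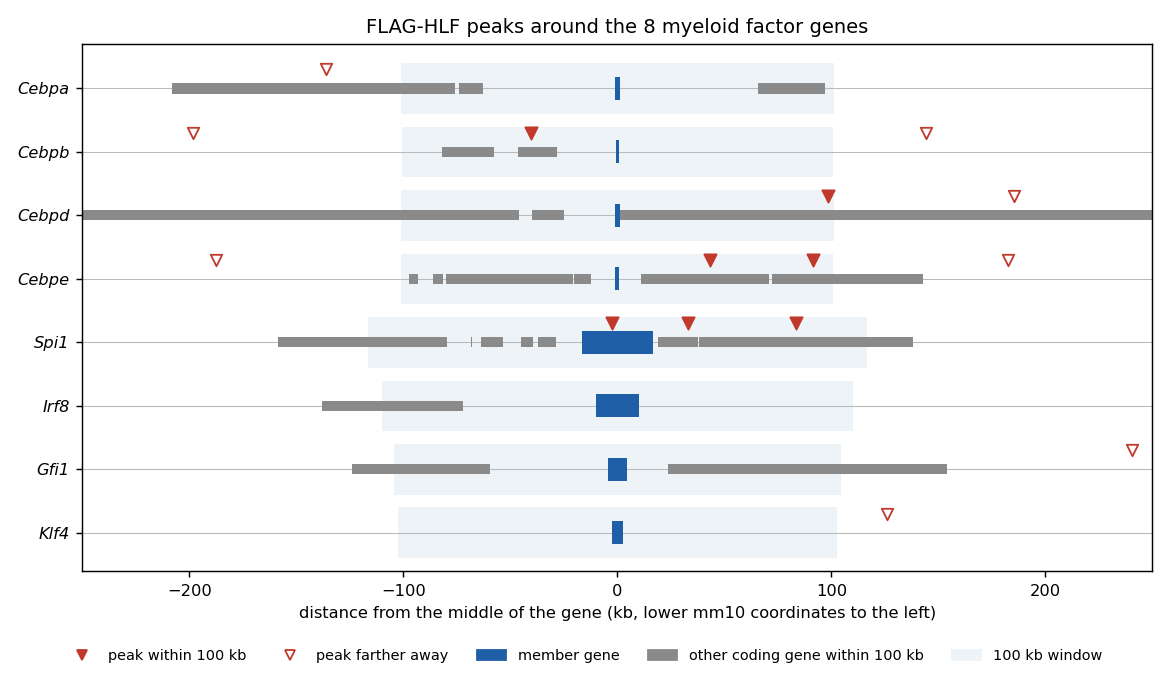
Map of the FLAG-HLF peaks around the 8 myeloid factor genes. The x axis is the distance from the middle of each gene in kb, with blue bars for the gene, grey bars for other coding genes within 100 kb of it, and a pale band for the 100 kb window. Filled triangles are the 7 peaks in a window and open triangles peaks farther away, and the peak inside Spi1 is the only filled triangle over a blue bar.

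Spi1 held the closest and the most peaks of the 8 genes. It encodes PU.1, lies on chromosome 2 (91082374 to 91115759, mm10) and is the longest of the 8 at 33.4 kb. Its window held 3 peaks, and 3.78% of coding genes had 3 or more. The first peak (chr2:91096482-91096881) lay inside the gene, 14.3 kb from its lower and 19.1 kb from its upper end, where lower means the end with the smaller coordinate. The closest other coding gene, Mybpc3, was 21.4 kb from that peak. The gene table gives 4 Spi1 transcripts without their bounds, exons or strand, so whether the peak was at the start of a transcript, in an exon or in an intron was not determined. Among all coding genes 6.91% held a peak, and among those no longer than Spi1 3.07% did. These shares, like the 3.78% above, are for any single coding gene. Spi1 was the highest of 8, so they do not measure how rare it is.

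The other 2 peaks of the Spi1 window lay on its upper side and inside neighbouring genes. The nearer (chr2:91132085-91132484) was 16.5 kb from Spi1 and inside Mybpc3, a gene of the heart muscle sarcomere, 4.23 kb from an end of that gene. The farther (chr2:91182350-91182749) was 66.8 kb away and inside Madd, a regulator of Rab GTPases, 1.46 kb from an end of that gene. It also lay 1.51 kb from Nr1h3, which encodes the oxysterol receptor LXR alpha. The 3 peaks were spaced by 35.6 and 50.3 kb. On the lower side of Spi1 no peak occurred for 539 kb. The surroundings are dense in genes, with 10 other coding genes within 100 kb, and each of the 3 peaks was within 100 kb of 9 coding genes.

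Cebpe had 2 peaks, both on its upper side and both inside other genes. It encodes C/EBP epsilon, which is needed for the late granules of neutrophils, and lies on chromosome 14 (54710363 to 54712174). The nearer peak (chr14:54754520-54754919) was 42.5 kb from Cebpe and inside Slc7a8, an amino acid transporter gene, 27.2 kb from an end of that gene. The farther (chr14:54802470-54802869) was 90.5 kb away and inside Rnf212b, a RING finger gene, 19.3 kb from an end of it. They were 47.95 kb apart, and 12.6% of coding genes had 2 or more peaks in their window. Cebpe was the third closest coding gene to the nearer peak and the sixth closest to the farther. These 2 peaks stood at lines 174 and 192 of the file, within its first 315 lines, and the other 5 peaks stood at lines 600 to 3021. The order of the lines is not explained in the sources used here.

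Cebpb had 1 peak, upstream of its start. It encodes C/EBP beta, which acts in macrophages and in emergency granulocyte formation, and lies on the plus strand of chromosome 2 (167688915 to 167690432). The peak (chr2:167649218-167649617) was 39.5 kb upstream, inside Tmem189, a gene of ether lipid synthesis, and 6.19 kb from an end of that gene. Tmem189 was the only coding gene reaching into the interval between the peak and Cebpb. A further peak lay 143 kb downstream of Cebpb in an interval without a coding gene, 97.0 kb from Ptpn1, a tyrosine phosphatase gene. Another lay 198 kb upstream, inside Spata2.

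Cebpd had 1 peak, just inside the 100 kb limit. It encodes C/EBP delta, an acute phase factor, and lies on chromosome 16 (15887286 to 15889545). The peak (chr16:15986409-15986808) was 97.1 kb from its upper end and inside Spidr, a DNA repair gene whose lower end lies within the bounds of Cebpd. This peak lay 97.4 kb from the nearest end of Spidr, so the end of Cebpd was the nearest end of any coding gene. A second peak inside Spidr was 184 kb from Cebpd. On the lower side of Cebpd no peak occurred for 2770 kb.

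All 7 peaks lay inside a coding gene, against 58.2% of the 2994 peaks within 100 kb of any coding gene and 55.2% of the whole list, and 6 of the 7 lay inside a gene other than the myeloid factor. Spi1 was the only one of the 8 that was itself the nearest coding gene to a peak in its window. When distance was taken to gene ends even for peaks inside a gene, Cebpd was added and the count was 2. The 7 peaks were within 100 kb of 2 to 9 coding genes each, with a median of 7, against a median of 3 both over those 2994 peaks and over the whole list. The 7 peaks were chosen for lying near a gene, so part of these differences from the list is fixed by the choice, and nothing is read from them. Each of these peaks thus lay near several genes, and the list does not say which gene a peak acts on.

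Of the 4 genes without a peak in the window, 2 lay close to the limit. Klf4 encodes a zinc finger factor of monocytes and of pluripotent cells and lies on the minus strand of chromosome 4 (55527137 to 55532475). Its closest peak (chr4:55655386-55655785) was 123 kb upstream of its start. Klf4 was nevertheless the nearest coding gene to that peak, since no coding gene lay between them and the next closest, Rad23b, was 263 kb from it. Klf4 had 0 other coding genes within 100 kb. On its downstream side no peak occurred for 1606 kb.

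Cebpa, the gene of C/EBP alpha, lies on the plus strand of chromosome 7 (35119293 to 35121928). Its closest peak (chr7:34984476-34984875) was 135 kb upstream, inside Pepd, a peptidase gene, and 60.03 kb from an end of Pepd. Cebpg, a C/EBP family gene next to Cebpa, lies between that peak and Cebpa. The peak was 61.7 kb from Cebpg, so it counted for Cebpg and not for Cebpa. On the downstream side of Cebpa, where a known myeloid enhancer of the mouse gene lies, the closest peak was 436 kb away.

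Gfi1 and Irf8 were the farthest from a peak. Gfi1, on the minus strand of chromosome 5 (107716655 to 107725805), had its closest peak (chr5:107961390-107961789) 236 kb upstream, inside Dipk1a, with Evi5, Ube2d2b and Rpl5 in between. Its closest peak on the downstream side was 699.9 kb away. Irf8, on the plus strand of chromosome 8 (120736358 to 120756694), had its closest peak (chr8:121570357-121570756) 814 kb downstream, inside Fbxo31, a ubiquitin ligase subunit gene. Its closest upstream peak was 923 kb away. Irf8 thus sat in a stretch of 1757 kb without a peak, and the stretch around Gfi1 was 945 kb. The stretch was 1735 kb around Klf4 and 2869 kb around Cebpd, 573 kb around Cebpa, 231 kb around Cebpe and 184 kb around Cebpb. Spi1 holds a peak and so has no such stretch. The stretches around other coding genes are not given here, so nothing is read from these lengths.

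Ranked by the closest peak, the order was Spi1 with the peak inside, then Cebpb at 39.5 kb, Cebpe at 42.5 kb, Cebpd at 97.1 kb, Klf4 at 123 kb, Cebpa at 135 kb, Gfi1 at 236 kb and Irf8 at 814 kb. Neighbours in this order such as Cebpb and Cebpe differ by a few kb, and the list has no error for a distance beyond its fixed peak width. The median was 110.1 kb over the 8 genes and 181 kb over all coding genes. A peak closer than that of Cebpb was found for 21.4% of coding genes, closer than that of Cebpd for 36.2%, closer than that of Cebpa for 43.1% and closer than that of Irf8 for 81.3%. Cebpd at 97.1 kb was the last inside the limit and Klf4 at 123 kb the first outside it. At a limit of 200 kb, 6 of the 8 genes had a peak, all but Gfi1 and Irf8, against 52.4% of coding genes.

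**Figure D2:**
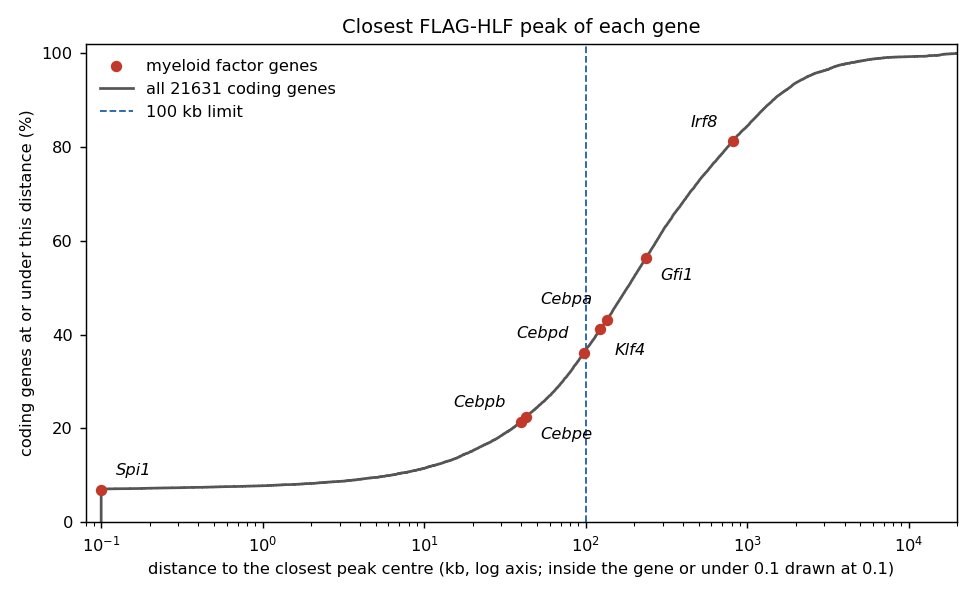
Closest FLAG-HLF peak of the 8 myeloid factor genes among all 21631 coding genes. The x axis is the distance to the closest peak centre in kb on a log axis and the y axis the percentage of coding genes at or under it, with red points for the 8 genes and a dashed line at 100 kb. Spi1 lies at the left with a peak inside, Cebpb, Cebpe and Cebpd lie left of the line, and Irf8 at 814 kb lies farthest right.

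The relatives, partners, regulators and targets of these factors were set beside them in 8 lists of 133 genes, of which 132 were found as coding genes. Of these, 80 (60.6%) had a peak within 100 kb and 47 (35.6%) within 20 kb, against 4 of 8 and 1 of 8 for the myeloid factor genes and 36.7 and 15.2% of all coding genes. The median distance to the closest peak was 68.4 kb over the 132 genes. These shares have no test, and gene density and open chromatin were not matched. The genes and lists were also chosen with earlier results of these data known, so nothing is read from their difference from all coding genes. The genes named below are among those with most peaks in their list. Setting them beside the 8 myeloid factor genes is therefore a description only.

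Among C/EBP family and bZIP partner genes, 11 of 14 had a peak within 100 kb and 5 within 20 kb. Atf3 had 1 of its 2 peaks centred 0.003 kb inside an end of the gene, in the promoter shown above. Fosl2, an AP-1 subunit, had 2 peaks inside the gene. Atf4, the factor of the amino acid stress response, had 1 inside, 0.928 kb from an end. Atf3, Fosl2 and Atf4 were named for having most peaks and then the shortest distance. Nothing is therefore read from their distances against the 4 C/EBP genes, none of which had a peak within 20 kb. The median distance to the closest peak over the 14 list genes was 53.4 kb.

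In the IRF list, which leaves out Irf8, 5 of 9 genes had a peak within 100 kb and 2 within 20 kb. Irf2bp2, a partner of IRF2, had 4 peaks outside the gene, the nearest at 2.40 kb. Irf2 had 3, of which 2 were inside. Irf9, part of the interferon response complex, had 3, the nearest at 24.9 kb. Irf8 had 0. In the ETS and RUNX list, which holds the relatives of PU.1, 8 of 14 genes had a peak. Runx2 had 3 inside and Spib, the closest relative of Spi1, had 2 outside, at 17.03 kb and farther.

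In the list of repressors and zinc finger factors, which holds the GFI1 paralog and partners of GFI1, 12 of 15 genes had a peak within 100 kb and 5 within 20 kb. Gfi1b, the paralog of Gfi1 in erythroid cells and megakaryocytes, had 2, the nearest at 17.9 kb, against 0 for Gfi1. Rcor1, a corepressor subunit that GFI1 recruits, had 2, the nearest at 2.92 kb. In the KLF family without Klf4, 7 of 12 genes had a peak. Klf10, Klf13, Klf3 and Klf7 each had 1 inside the gene, and Klf2 had 2 with the nearest at 37.3 kb, against 0 in the window of Klf4.

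Among myeloid target genes of these factors, 14 of 25 had a peak within 100 kb and 10 within 20 kb. Mpo, the myeloperoxidase gene, had 5 in its window. Ltf, which encodes the granule protein lactoferrin and is a target of C/EBP epsilon, had 2, of which 1 was inside. Ccr2, a monocyte chemokine receptor gene, had 2, the nearest at 36.8 kb. Among regulators of these factors, 10 of 18 had a peak. Trib1, whose product promotes degradation of C/EBP alpha, had 6 in its window, 3 of them inside. Kat2a, a histone acetyltransferase gene, had 3, the nearest at 3.18 kb. Among the other factors of early myeloid and competing fates, 13 of 25 had a peak, and Nr4a1, a nuclear receptor of patrolling monocytes, had 4 outside the gene, the nearest at 9.80 kb. The list median was 1 peak per gene in each of the 8 lists, against 0.5 over the 8 myeloid factor genes and 0 over all coding genes.

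**Figure D3:**
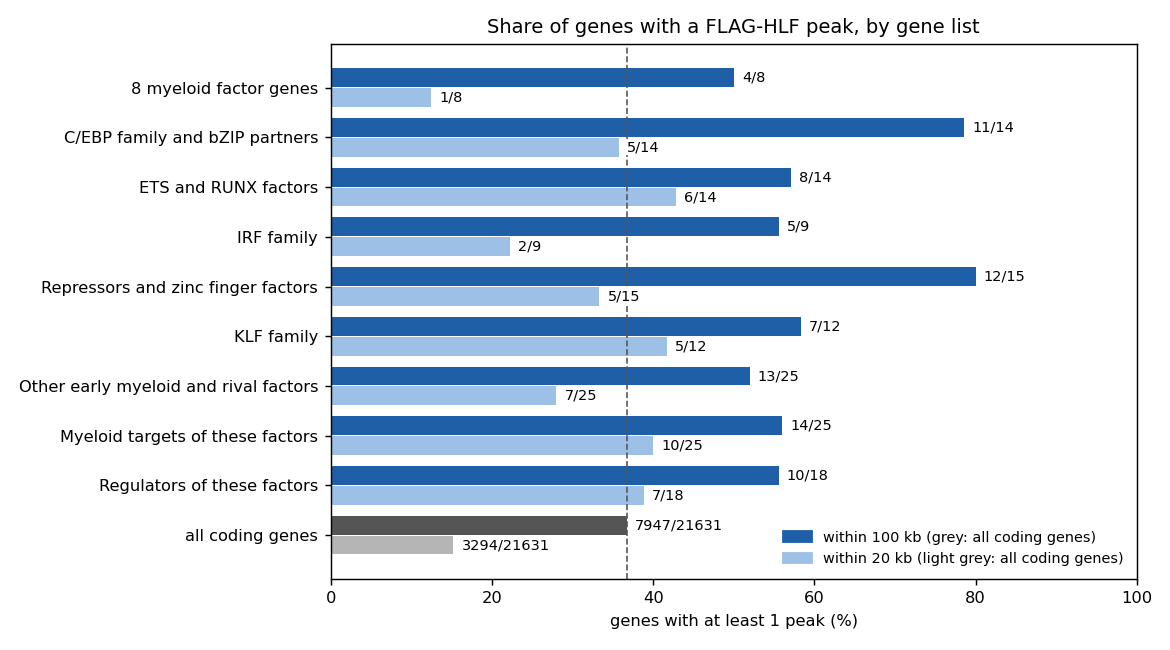
Share of genes with a FLAG-HLF peak for the 8 myeloid factor genes, 8 lists of related genes and all coding genes. The x axis is the percentage of genes with at least 1 peak, with dark bars for 100 kb and light bars for 20 kb, counts beside the bars, and a dashed line at the 36.7% of all coding genes within 100 kb. The myeloid factor genes reach 50% at 100 kb and 12.5% at 20 kb, the lowest of the gene lists at both limits. They are above all coding genes at 100 kb and below them at 20 kb.

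Hlf itself, which the virus supplied, had 1 peak in its own window, 95.6 kb from the gene.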

How the data were processed

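The deposited file is a peak list of the FLAG-HLF library with chromosome, start and end and no header. Per the submitters' processing notes, the tools were Bowtie2, MACS2 and bedtools on mm10 (GRCm38), with no version or role. How peaks were called and filtered, whether the GFP library was the background, and how every peak came to be 400 bases wide was not given in the sources used here.

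Peak centres (start + 200) were set against gene bounds from RefSeq (GRCm38.p6), which lists 49997 genes. The 20 chromosomes with peaks hold 21631 coding genes. Distances run to the nearest gene end, and are 0 inside a gene. Coordinates are counted from 1. Motifs were searched in RefSeq promoters. The sequence of the peaks outside promoters was not used here. With 1 list no test was run, and intervals are exact Clopper-Pearson at 95%. The distance count was tested on simulated data. The motif search was tested that way for 5 of the 8 motifs, and TTGCNNAA was not among them. Of each list up to 6 genes with most peaks could be named, then by shortest distance. The genes and lists were chosen with earlier results of these data known. Alternatives changed the distance limit, the overlap rule, the lines used, the gene set and the gene assignment. Software was Python 3.11.15 with pandas 2.3.3, numpy 2.4.6, matplotlib 3.10.9 and scipy 1.17.1.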

Additional observations from a re-analysis of the deposited data

How the results depend on the processing

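Of 23 alternative values, 11 stayed within the error or within 1.5 times the count reported. With a limit of 20 kb, 1 myeloid factor gene had a peak, 2 peaks were counted, 47 list genes had a peak, and the share of all coding genes was 15.2%. With 50 kb, 4 peaks were counted and the share was 24.5%. With 200 kb there were 14 peaks and the share was 52.4%. With the lines up to 1576 alone, 3 of the 8 genes had a peak, and with lines 1577 to 3153 alone, 2 of the 8 did. The share of all coding genes is not given for these parts of the file, so nothing is read from the lower counts. The share of coding genes within 100 kb was 34.9% for genes no longer than Spi1 and 39.1% without olfactory and vomeronasal receptor genes. With distance to gene ends also for peaks inside a gene, 2 genes were nearest to a peak. Counting any overlap of a peak with the window changed none of the 4 counts it was tried on. Depth is unknown. No paired analysis was possible because there is 1 peak list.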

Other observations

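The pattern TTGCNNAA, which includes the C/EBP palindrome, was frequent in promoters that overlapped a FLAG-HLF peak. Its inner letters NN can be any bases, so a match need not be a C/EBP site. The matches were not split by those letters. TTGCNNAA occurred in 69 of the 227 promoters that overlapped a peak, or 30.4% (95% exact Clopper-Pearson interval 24.5 to 36.8%), against 10.9% of all 32619 promoters. The palindromic C/EBP site TTGCGCAA occurred in 6 of the 227 (2.64%), against 0.184% of all. TTATGTAA, a variant of the PAR bZIP site, occurred in 14 of the 227 (6.17%, interval 3.41 to 10.1%), against 0.944% of all, and TTACNTAA in 20 (8.81%), against 2.25%. The PAR bZIP palindrome TTACGTAA occurred in 1 of the 227 (0.441%, interval 0.0112 to 2.43%), against 0.120% of all, a count too small to read either way. GAGGAAGT, the PU.1 core, occurred in 11 (4.85%, interval 2.44 to 8.50%), against 3.22% of all, and TGACGTCA in 8 (3.52%, interval 1.53 to 6.83%), against 1.80%. CACGTG occurred in 25 (11.0%, interval 7.26 to 15.8%), against 7.20%. The intervals cover counting error only, some genes have several overlapping promoters (the 227 belong to 214 genes), and base composition was not matched. A match does not show which protein was bound, and none of the 7 promoters analysed for 5 of the 8 myeloid factor genes is among the 227.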
